A study of Mus musculus with 12 samples.

Results

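The comparison described here is between colon tissue next to tumours from mice that lost Synbindin in the intestinal epithelium and the same tissue from control mice, and it rests on 6 of the 12 RNA-seq libraries of the series. The members are the libraries whose labels give adjacent colon epithelium as the source. 3 carry the genotype Synbindinflox (flox, the control) and 3 the genotype SynbindindeltaIEC (ΔIEC). All mice were C57BL/6 and came from a colitis-associated cancer model, in which tumours arise in a chronically inflamed colon. The other 6 libraries are tumours of the same 2 genotypes, 3 each, and served to estimate the spread and for a test of the difference between tissues. The series title speaks of scraped epithelium, while the protocol describes dissected tissue. Of the 6 tumour libraries, 5 share the number in their description code with an adjacent library of the same genotype, and their sex-linked genes matched in each of these 5, so the tumours are not independent of the adjacent tissue. The sources used here do not give the Cre driver, the cancer-inducing agent or the ages, and do not state whether replicates are separate animals. Their codes differ, and each genotype held libraries of both sexes, so each group came from more than 1 mouse.

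Synbindin is the product of Trappc4, a core subunit of the TRAPP complexes. These complexes tether vesicles that carry newly made proteins from the endoplasmic reticulum to the Golgi, and they activate small GTPases of the Rab family. Synbindin has also been described as a scaffold for the kinases of the ERK pathway on the Golgi. The colon epithelium depends on this route for its mucins, transporters and junction proteins.

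Values are FPKM, fragments scaled by transcript length and by library size, listed in the order of replicates 1, 2 and 3. How library size was set is not given. Log2 differences are ΔIEC minus flox on the scale of log2(FPKM + 1), where the change of a gene at low FPKM is understated. The tests are those of limma with Benjamini-Hochberg adjustment, over 16970 genes or 40417 transcripts that reached an FPKM of 1 in at least 3 libraries. The files give no read counts, so the depth of each library is unknown. The summed FPKM of the 6 libraries ranged from 686922 to 821487, and the number of genes at an FPKM of 1 or more from 14757 to 15533. The share of small RNA genes in the summed FPKM was 15.5% to 21.5%. An exact permutation test, two-sided with 3 libraries a group, gave p = 0.9 for the summed FPKM and p = 0.5 for the small RNA share, and 0.1 is the smallest p that it can give.

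The targeted gene was lower but not lost. Trappc4 (ENSMUSG00000032112) lies on the minus strand of GRCm38 chromosome 9, 44403698 to 44407600. It was at 16.8, 17.0 and 17.3 FPKM in the flox libraries and at 10.2, 12.6 and 10.4 FPKM in the ΔIEC libraries. The ΔIEC mean was 64.9% of the flox mean, and the groups did not overlap. The log2 difference was -0.59 (SE 0.115, 95% interval -0.84 to -0.33), the exact two-sided permutation p was 0.1, and the limma adjusted p was 0.931. The table lists 1 Trappc4 transcript, of 5 exons, so it does not show which exons the remaining RNA holds. In bulk tissue, fewer cells of a type and less RNA per cell cannot be told apart, and the genotype's name places the deletion in intestinal epithelial cells, while the tissue also holds others. Of 12 tested genes within 100 kb of Trappc4, 1 parted the groups, downward, beside 5.14% of all tested genes parting downward and 2.56% upward. That neighbour was the ribosomal protein gene Rps25, at 324, 314 and 336 FPKM in flox and 284, 309.7 and 293 in ΔIEC libraries.

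The smallest adjusted p of the comparison belonged to 1 transcript of Mt1, the gene of metallothionein 1, a small cysteine-rich protein that binds zinc and other metals. Mt1 (ENSMUSG00000031765, GRCm38 chromosome 8, 94179082 to 94180327, plus strand) has 3 transcripts in the table. Mt1-201 is the spliced messenger RNA, with 3 exons and 549 bases. Mt1-202 is a single exon of 1085 bases on GRCm38 chromosome 8, 94179241 to 94180325, and 697 of its bases lie in the introns of Mt1-201, so it covers the gene without splicing. The coding sequences annotated for both in GENCODE M21 on GRCm38 are shown because they are where the transcripts part. They start at the same base, chromosome 8, 94179311, and capitals mark the bases of Mt1-202 that are intron in Mt1-201.
Mt1-201: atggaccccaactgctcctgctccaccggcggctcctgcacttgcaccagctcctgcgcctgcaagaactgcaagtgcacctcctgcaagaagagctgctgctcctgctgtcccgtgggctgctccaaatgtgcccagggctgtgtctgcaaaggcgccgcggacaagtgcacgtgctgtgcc
Mt1-202: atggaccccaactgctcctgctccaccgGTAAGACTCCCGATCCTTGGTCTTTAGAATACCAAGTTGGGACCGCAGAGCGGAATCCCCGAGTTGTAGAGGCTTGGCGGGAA
Both begin with the same 28 bases, and the following 83 bases of Mt1-202, which start with the GT of a splice donor, are intron in Mt1-201.

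Mt1-202 was close to absent in flox tissue and abundant in ΔIEC tissue. It was at 0.789, 1.55 and 2.33 FPKM in the flox libraries and at 139.8, 84.7 and 91.8 FPKM in the ΔIEC libraries, with means of 1.56 ± 0.771 and 105 ± 29.9 (SD, n = 3). The lowest ΔIEC library stood far above the highest flox library, and the ratio of the means was 67.6. The log2 difference was 5.39 (SE 0.37, 95% interval 4.58 to 6.20, limma adjusted p = 8.38e-04). It passed the test in every alternative that was run on transcripts and with each library left out, with a largest adjusted p of 0.0398 when only the 6 adjacent libraries were fitted.

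The spliced transcript was higher as well, with a smaller margin. Mt1-201 was at 52.7, 224 and 101 FPKM in flox and at 530.2, 374 and 406 FPKM in ΔIEC libraries, with no overlap (log2 difference 2.01, limma adjusted p = 0.639). Mt1-202 made up 1.48, 0.688 and 2.26% of the Mt1 FPKM in the flox libraries and 20.9, 18.4 and 18.4% in the ΔIEC libraries. For the gene as a whole the log2 difference was 2.30 (limma adjusted p = 0.931), and it passed the test without flox replicate 2, at 2.83 (adjusted p = 0.0480).

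Its neighbour Mt2, the other metallothionein gene that most tissues use and that is usually induced together with Mt1 by metals and glucocorticoids, overlapped between the genotypes. Mt2 was at 18.4, 193 and 78.9 FPKM in flox and 40.8, 27.8 and 39.2 in ΔIEC libraries (log2 difference -0.88, limma adjusted p = 0.931). The ratio of Mt1 to Mt2 FPKM was 2.90, 1.17 and 1.31 in the flox libraries and 16.4, 16.5 and 12.7 in the ΔIEC libraries, without overlap. Of the 19 tested genes of metallothioneins and zinc transporters, 5 were higher and 14 lower in ΔIEC tissue, and only Mt1 parted the groups. Over all tested genes, 2.56% parted upward and 5.14% downward. Mtf1, the transcription factor that answers zinc, was at 17.4, 11.96 and 9.03 and 14.3, 9.81 and 16.2 FPKM, and the zinc exporter gene Slc30a1, one of its targets, at 9.30, 20.9 and 14.7 and 13.4, 10.2 and 10.1. Both overlapped between the genotypes.

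Tumours, most of which share a code with an adjacent library, showed the same order for Mt1-202. It was at 0.982, 0.546 and 0.831 FPKM in flox tumours and at 9.32, 21.0 and 29.2 FPKM in ΔIEC tumours, a ratio of means of 25.2, and its share of Mt1 was 1.02, 0.490 and 0.987% against 5.16, 12.7 and 12.3%. The difference between the tissues was not called for any transcript. As background, some Cre transgenes end in a genomic fragment of Mt1, introns included, which serves as their polyadenylation signal. The Cre driver is not given here, and the deletion and any transgene go together in these groups, so reads of the mouse's own Mt1 gene and reads of such a fragment cannot be told apart. Whether the reads of Mt1-202 cover its whole length was not tested.

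**Figure D1:**
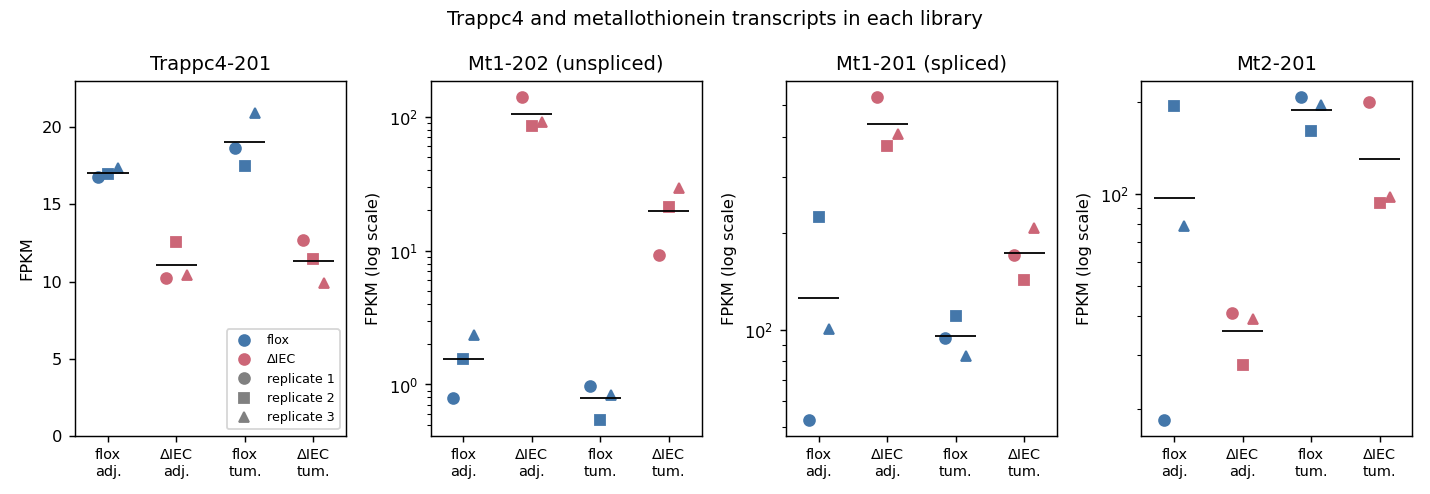
FPKM of Trappc4 and of 3 metallothionein transcripts in each of the 12 libraries (circles are replicate 1, squares 2, triangles 3) and the mean of each group of 3 (line); adj. is adjacent tissue and tum. is tumour, the Trappc4 axis starts at 0 and the other axes are logarithmic. Mt1-202 lies between 0.789 and 2.33 in flox adjacent tissue and between 84.7 and 139.8 in ΔIEC adjacent tissue, while Mt2-201 overlaps.

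Over all transcripts, 2 of 40417 passed the test (0.00495%), and 2125 (5.26%) had an unadjusted p below 0.05. The other was Rbm47-206, a transcript of 7 exons and 3180 bases from the gene of an RNA-binding protein that takes part in RNA editing and splicing. It was at 1.74, 1.78 and 1.49 FPKM in the flox libraries and listed at 0 or close to it in the ΔIEC libraries, the highest being 0.00196. The log2 difference was -1.41 (SE 0.13, limma adjusted p = 0.00886). It was no longer called with the 6 adjacent libraries only (adjusted p = 0.556) or without flox replicate 2 (0.0784). In tumours it was present in both genotypes, at 2.05, 2.55 and 2.36 and 1.70, 1.37 and 1.26 FPKM. It is a minor transcript of 14 that are listed for Rbm47, whose summed level of 151, 175 and 156 FPKM in flox and 158, 112 and 122 in ΔIEC libraries overlapped. The count of 2 went up to 39 without ΔIEC replicate 1 and to 4 without flox replicate 1 or ΔIEC replicate 3, and it was 1 without flox replicate 2.

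Fcgrt-201, the main transcript of the neonatal Fc receptor that carries antibodies across and within cells, came next. It was at 17.7, 21.0 and 24.5 FPKM in flox and 7.25, 7.22 and 10.1 in ΔIEC libraries, without overlap (log2 difference -1.26, SE 0.15, limma adjusted p = 0.0748). It passed without ΔIEC replicate 1 (adjusted p = 0.0495) or 3 (0.0366) and with a stricter filter at an FPKM of 5 (0.0458). The other transcript of similar length, Fcgrt-203, was at 4.60, 8.62 and 8.49 and 12.2, 7.32 and 6.04 FPKM and overlapped, and the summed gene was at 24.7, 31.1 and 34.5 and 20.9, 16.3 and 17.9 FPKM without overlap. In tumours Fcgrt-201 was at 6.58, 6.20 and 5.79 and 6.39, 5.95 and 6.75 FPKM.

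The other transcripts with the smallest p in each direction did not pass (limma adjusted p of 0.46 or above). Maz-201, from a zinc-finger transcription factor gene, was at 0.606, 3.09 and 1.84 FPKM in flox and 8.85, 7.47 and 9.80 in ΔIEC libraries. Acad11-202, from a gene of an acyl-CoA dehydrogenase, was at 0.00612, 1.22 and 0.179 and 6.80, 5.46 and 7.20 FPKM. In the lower direction, Spata13-201 was at 8.82, 7.95 and 10.2 and 3.74, 3.93 and 4.42 FPKM. Nucb1-206, from the gene of the Golgi calcium-binding protein nucleobindin 1, was at 61.5, 70.3 and 69.3 and 37.8, 38.6 and 40.9 FPKM. The more abundant Nucb1-201 was at 116, 153 and 145 and 143, 113 and 113 FPKM and overlapped. The summed Nucb1 gene was at 243, 294 and 291 and 232, 203 and 211 FPKM without overlap. The groups did not overlap for Maz-201, Acad11-202, Spata13-201 or Nucb1-206. Of all tested transcripts, 4.16% lay above without overlap and 4.88% below.

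No gene passed the test. Limma called 0 of 16970 genes (0.0%), 702 (4.14%) had an unadjusted p below 0.05, and the median absolute log2 difference was 0.15. The count was 0 under each other scaling, filter and covariate that was run, and 1 without flox replicate 2 (Mt1), flox replicate 3 (the small RNA gene Gm22362) or ΔIEC replicate 3. Without ΔIEC replicate 1 it was 299, of which 290 were higher and 9 lower. In 289 of these 299 genes ΔIEC replicate 1 stood below both other ΔIEC libraries, and in 107 (35.8%) it lay within the flox range. These genes were called only with that library left out, so the selection favours this order and the counts are not independent evidence. The 95% interval of the difference lay within 1 log2 unit of 0 for 13507 genes (79.6%), and its median half-width was 0.43.

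All 3 ΔIEC libraries lay above all 3 flox libraries in 435 genes (2.56%) and below them in 873 (5.14%). By class of the annotation, of 13325 protein-coding genes, 282 parted upward and 759 downward. Of 165 immunoglobulin variable segments, 19 (11.5%) parted upward and 0 downward, and 154 were higher in the mean.

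**Figure D2:**
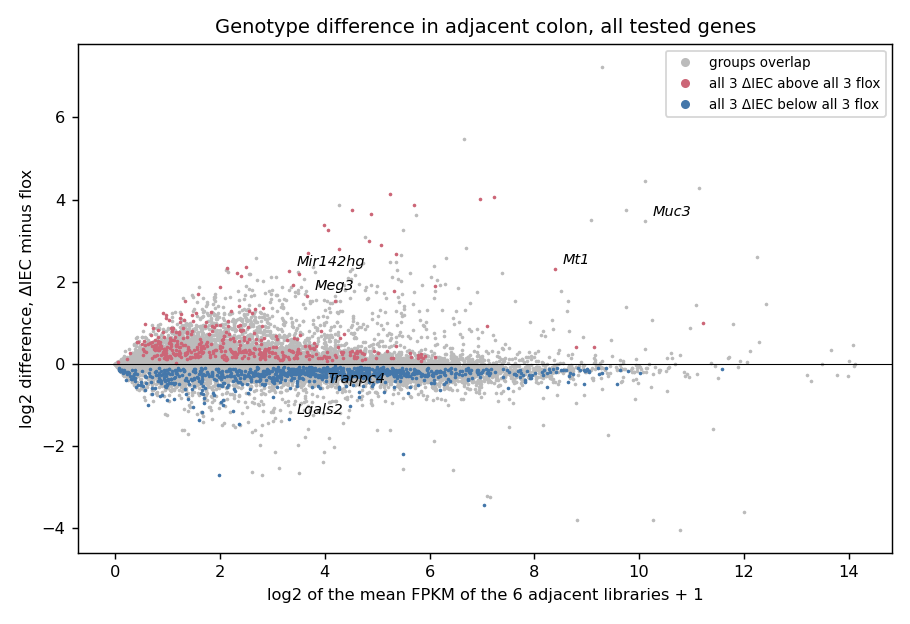
Log2 difference between ΔIEC and flox adjacent tissue (vertical) against the log2 of the mean FPKM + 1 of the 6 libraries (horizontal) for the 16970 tested genes; red and blue points are the 435 and 873 genes whose groups of 3 do not overlap, grey points overlap. Trappc4 sits at -0.59 and Mt1 at 2.30, and the grey points far from 0, such as Muc3 at 3.47, belong to genes with a wide spread within a group.

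Beside Mt1, genes of blood cells were among those that parted upward with the smallest p. Pik3cg and Pik3r5 encode the catalytic subunit and a regulatory subunit of phosphoinositide 3-kinase gamma, an enzyme of leukocytes. Pik3cg was at 3.83, 4.39 and 3.19 FPKM in flox and 5.84, 9.34 and 9.41 in ΔIEC libraries (log2 difference 0.92, SE 0.20), and Pik3r5 at 2.13, 3.82 and 2.53 and 6.54, 5.75 and 4.67 (0.81, SE 0.21). Mir142hg, the host transcript of the blood-cell microRNA miR-142, was at 1.06, 2.04 and 2.72 and 4.66, 13.3 and 30.1 FPKM (2.25, SE 0.50). Ms4a4c, of a family of membrane proteins found on leukocytes, was named for the size of its difference and not for its p. It was at 0.355, 0.272 and 0.294 and 0.698, 3.85 and 12.4 FPKM. None overlapped, ΔIEC replicate 1 was the lowest ΔIEC library for Pik3cg, Mir142hg and Ms4a4c, and these 3 passed the test without it (limma adjusted p of 0.0196 for Pik3cg and 0.0162 for the others). The pan-leukocyte gene Ptprc, chosen after its values were seen, was at 12.7, 16.6 and 18.7 FPKM in flox and 18.4, 43.3 and 83.9 in ΔIEC libraries, and there ΔIEC replicate 1 lay within the flox range.

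Noncoding RNAs of the imprinted Dlk1-Meg3 region of chromosome 12, which are expressed from the maternal copy, were also higher. Meg3 (GRCm38 chromosome 12, 109541001 to 109571726, plus strand) was at 4.45, 4.29 and 5.68 FPKM in flox and 12.4, 29.4 and 14.0 in ΔIEC libraries (log2 difference 1.66, SE 0.42, limma adjusted p = 0.931). Rian, the next transcript on the same strand, was at 9.16, 7.14 and 6.81 and 16.1, 46.5 and 18.6 FPKM (1.54, SE 0.48). All 3 ΔIEC libraries lay above all flox libraries for both, and replicate 2 was the highest. Mirg, which follows Rian, and the paternally expressed Dlk1 were chosen after their values were seen, and they too parted the groups, at 0.526, 0.744 and 0.766 against 2.45, 5.29 and 1.78 FPKM and 1.34, 1.74 and 0.164 against 2.13, 3.37 and 6.52 FPKM. In tumours the log2 difference was -0.06 for Meg3 and -0.15 for Rian.

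Cdan1, Helq and Mical1 also parted upward. Cdan1, which acts in chromatin assembly and red cell formation, was at 3.58, 3.75 and 3.62 FPKM in flox and 6.08, 5.92 and 5.28 in ΔIEC libraries. The DNA helicase gene Helq was at 4.76, 5.01 and 3.88 and 7.14, 7.86 and 6.80 FPKM, and Mical1, whose enzyme takes actin filaments apart, at 12.9, 9.61 and 7.84 and 17.0, 18.1 and 19.3. The log2 differences were 0.54, 0.58 and 0.81, each with a limma adjusted p of 0.931.

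Genes that parted downward included metabolic and epithelial genes. Idh1, the cytosolic isocitrate dehydrogenase that makes NADPH, was at 78.8, 93.8 and 98.1 FPKM in flox and 65.0, 62.0 and 62.8 in ΔIEC libraries (log2 difference -0.50, SE 0.15). Ppp2r2a, a regulatory subunit of protein phosphatase 2A, was at 16.4, 16.5 and 16.0 and 12.9, 13.5 and 13.1 FPKM (-0.29, SE 0.08). The glutathione transferase gene Gstp2 was at 40.6, 45.4 and 54.3 and 35.1, 26.5 and 32.4 FPKM (-0.56, SE 0.16). The SD of log2(FPKM + 1) in flox and ΔIEC libraries was 0.02 and 0.03 for Ppp2r2a, 0.17 and 0.04 for Idh1, and 0.21 and 0.20 for Gstp2. None of these genes passed the test (limma adjusted p of 0.931). Gstp2 has a near-identical neighbour, Gstp1, at 170.3, 271 and 330.2 and 192, 175 and 155 FPKM, and how shared reads were split between them is not known.

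Krt7, a keratin of simple epithelia, was at 78.6, 94.7 and 91.0 FPKM in flox and 60.1, 61.1 and 49.5 in ΔIEC libraries, and Rtn4, a membrane protein of the endoplasmic reticulum, at 31.9, 44.4 and 51.0 and 29.9, 24.9 and 22.4. The largest differences without overlap were those of Wif1, a secreted Wnt inhibitor, at 3.23, 15.1 and 2.57 and 2.05, 1.04 and 0.884 FPKM, and of Lgals2, a galectin of the gut epithelium, at 14.0, 16.5 and 8.99 and 3.60, 8.07 and 2.83. The log2 differences were -1.46 (SE 0.56) and -1.35 (SE 0.57). Flox replicate 2 alone was high for Wif1, while for Lgals2 each group had its own spread. Paqr5, a membrane progestin receptor gene, was at 19.4, 33.8 and 34.1 and 19.2, 10.7 and 11.2 FPKM, and flox replicate 1 and ΔIEC replicate 1 almost met.

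**Figure D3:**
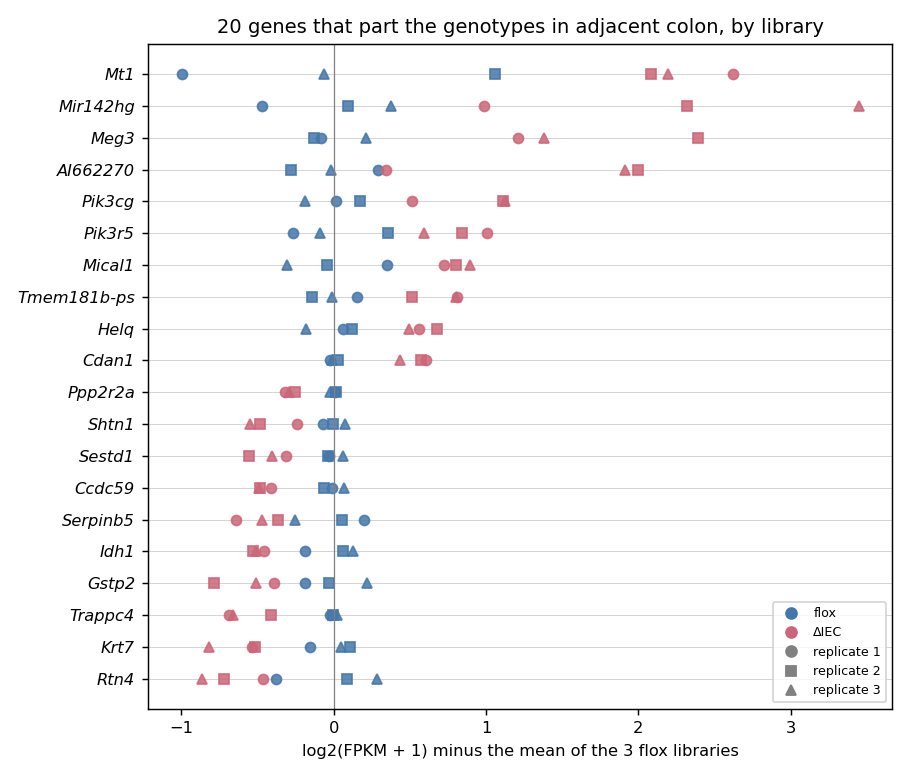
The 10 genes with the smallest p in each direction among those whose groups do not overlap, as log2(FPKM + 1) in each adjacent library minus the mean of the 3 flox libraries (horizontal; circle, square and triangle are replicates 1, 2 and 3). The ΔIEC points of Cdan1, Ppp2r2a and Idh1 lie close together, whereas those of Mir142hg run from 4.66 to 30.1 FPKM.

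Of the 10 genes with the smallest p that parted upward, 8 had the same sign in tumours, and of the 10 that parted downward, 6 had the same sign, beside 51.2% of all tested genes. The medians of their tumour differences were 0.12 and -0.02 on the log2 scale. The difference between the tissues was tested for all genes, and limma called 0 (0.0%), with 448 (2.64%) at an unadjusted p below 0.05. Without flox replicate 3 it called 1, again Gm22362. The smallest adjusted p among the 20 genes was 1.00 when rounded. Trappc4 differed by -0.59 in adjacent tissue and by -0.70 in tumours.

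The partners of Synbindin had small differences. Of 14 tested TRAPP subunits, 13 were lower in the mean and 4 parted the groups downward, Trappc4 among them, beside 56.5% of all tested genes lower and 5.14% parting downward. Trappc3, a core subunit, was at 27.2, 32.2 and 28.6 FPKM in flox and 25.2, 24.4 and 24.6 in ΔIEC libraries. Trappc8 and Trappc12, subunits of the TRAPPIII complex, were at 1.23, 1.16 and 1.02 against 0.844, 0.642 and 0.507 and 12.4, 13.5 and 12.9 against 12.2, 11.2 and 10.9 FPKM. The median log2 difference of the 14 was -0.12, -0.17 to -0.10 with each library left out, and -0.04 after protein-coding genes were rescaled to a common total. The 95% interval lay within 1 log2 unit of 0 for each of the 14.

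The coat that buds vesicles from the endoplasmic reticulum, COPII, and the tethers and fusion proteins of the Golgi had medians near 0. Of 16 COPII genes, 4 were higher and 12 lower, with a median of -0.04 that turned to 0.04 when protein-coding genes were rescaled and to 0.03 after quantile normalization. The cargo adaptor Sec24d was at 20.2, 20.2 and 23.2 FPKM in flox and 24.1, 29.5 and 23.5 in ΔIEC libraries, and Tfg, which organises the exit sites, at 34.6, 31.3 and 32.4 and 24.9, 28.6 and 28.7. Of 28 Golgi genes, 7 were higher and 21 lower, with a median of -0.05 that turned to 0.03 and 0.01 under the same settings and to 0.02 without ΔIEC replicate 3. The fusion protein syntaxin 5, from Stx5a, was at 49.7, 49.6 and 48.6 and 61.0, 59.3 and 53.2 FPKM, and the Golgi GTPase gene Rab6a at 60.04, 56.3 and 50.2 and 47.7, 45.0 and 46.1. These 4 genes did not overlap between the genotypes, Sec24d and Stx5a upward and Tfg and Rab6a downward. Of all tested genes, 2.56% parted upward and 5.14% downward.

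The unfolded protein response, which adjusts folding capacity in the endoplasmic reticulum, was higher in 25 of 27 genes and parted the groups upward in 3, beside 43.5% of all tested genes higher and 2.56% parting upward. Edem1, Syvn1 and Sel1l, which send misfolded proteins to degradation, were those 3. Syvn1 was at 16.5, 21.4 and 20.5 FPKM in flox and 24.02, 27.4 and 22.0 in ΔIEC libraries, Edem1 at 48.7, 43.2 and 40.3 and 51.0, 57.0 and 50.4, and Sel1l at 35.7, 36.2 and 35.1 and 38.9, 40.5 and 39.5. The list median of 0.19 was 0.03 without ΔIEC replicate 2. The chaperone gene Hspa5 was at 221, 225 and 208 and 205, 356 and 197 FPKM, and Derl3, a gene that secretory cells express strongly, at 1.72, 1.51 and 1.77 and 1.58, 7.66 and 5.90. In the library where Hspa5 was highest, ΔIEC replicate 2, immunoglobulin genes held 12.7% of the summed FPKM, beside 2.19% to 6.16% in the other 5. The 11 tested immunoglobulin constant genes summed to 4489, 3022 and 3448 FPKM in flox and 2946, 20197 and 14884 in ΔIEC libraries. By that measure ΔIEC replicate 3 was high as well. The part of antibody-secreting cells in this list was not tested.

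Genes of the ERK pathway differed by small amounts. Of 20 genes of the MAP kinase cascade, 4 were higher and 16 lower (median -0.09), and 3 parted downward, beside 56.5% of all tested genes lower and 5.14% parting downward. Ptpn11, a phosphatase that feeds the pathway, was at 28.7, 27.2 and 27.1 FPKM in flox and 19.5, 24.9 and 25.1 in ΔIEC libraries, and the kinase gene Braf at 13.0, 12.9 and 13.9 and 11.8, 12.4 and 12.5. The median was -0.03 after quantile normalization and -0.01 when protein-coding genes were rescaled. Of 19 feedback and target genes of ERK, which report its activity, 7 were higher, 12 lower and 0 parted the groups (median -0.08, 0.00 with protein-coding genes rescaled). Of 24 autophagy genes, 0 parted the groups.

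General epithelial genes had lower means in ΔIEC tissue. All 17 tested general epithelial genes were lower in the ΔIEC mean (median -0.37, from -0.52 without ΔIEC replicate 1 to -0.21 without ΔIEC replicate 2), and 4 parted the groups, where 56.5% of all tested genes were lower and 5.14% parted downward. Epcam, the epithelial adhesion molecule, was at 557, 637 and 529 FPKM in flox and 513, 315 and 424 in ΔIEC libraries, and Elf3, an epithelial transcription factor, at 265, 260.3 and 235 and 232, 144 and 215. The summed level of the list was 11509, 13927 and 10754 FPKM in flox and 11396, 7963 and 9433 in ΔIEC libraries. None of the list's genes was near 0, so the labelled epithelium was present in each library. Of 18 squamous keratinocyte genes, which would mark anal tissue, 10 were tested, and Sprr1a, a gene of the cornified envelope, was the highest, at 2.91, 23.5 and 11.04 FPKM in flox and 14.8, 8.77 and 5.08 in ΔIEC libraries. The other tested members were at 2.11 FPKM or below in each adjacent library, among them the basal keratin gene Krt5 at 0.317 or below.

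Genes of the differentiated cell types went in both directions. Of 24 absorptive colonocyte genes, 6 were higher and 18 lower (median -0.27, -0.09 without flox replicate 2, -0.01 without ΔIEC replicate 2 and -0.51 without ΔIEC replicate 1). Of 20 goblet cell and mucus genes, 10 were higher and 10 lower, and 1 parted the groups upward, beside 2.56% of all tested genes. That gene was Spink4, a secreted peptide of goblet cells, at 1974, 1452 and 1275 FPKM in flox and 3087, 4509 and 2077 in ΔIEC libraries (log2 difference 0.99, SE 0.44, limma adjusted p = 0.931). The gel-forming mucin gene Muc2 was at 6649, 19018 and 27491 and 30841, 14793 and 6927 FPKM. Of 24 proliferation genes, 17 were higher and 0 parted, and their median of 0.06 changed sign without flox replicate 2 or ΔIEC replicate 2, to -0.06 and -0.17.

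Housekeeping lists leaned down by small amounts. All 29 cytosolic ribosomal protein genes were lower and 9 parted the groups, again beside 56.5% and 5.14% of all tested genes, with a median of -0.12 that was -0.03 when protein-coding genes were rescaled and -0.05 after quantile normalization. Rpl38 was at 729, 617 and 604 FPKM in flox and 486, 582 and 567 in ΔIEC libraries. Of 22 genes of cholesterol synthesis, 4 were higher, 18 lower and 4 parted downward, against the same shares (median -0.19, -0.11 with protein-coding genes rescaled).

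Genes of several immune and stromal cell types were higher in the ΔIEC mean but varied among the ΔIEC libraries. All 19 B and plasma cell genes were higher, with a median of 1.63, which was 0.87 without ΔIEC replicate 3 and 2.505 without ΔIEC replicate 1, and 0 parted the groups. Of all tested genes, 43.5% were higher and 2.56% parted upward. Cd79b, a signalling chain of the B cell receptor, stood at 2.20, 1.26 and 2.47 FPKM in flox and 1.20, 22.9 and 48.6 in ΔIEC libraries, and Jchain, which joins secreted antibodies, at 233, 154 and 198 and 160.5, 929.5 and 689.6. ΔIEC replicates 2 and 3 were high, and ΔIEC replicate 1 was within or below the flox range. The summed level of the list was 262, 176 and 231 FPKM in flox and 179, 1111 and 1052 in ΔIEC libraries, and no member was listed at 0 in any library.

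Antibody variable segments included the 19 that parted the groups. Ighv6-6, chosen after its values were seen (GRCm38 chromosome 12, 114434788 to 114435244, minus strand), was at 22.1, 20.1 and 6.55 FPKM in flox and 158, 426 and 256 in ΔIEC libraries, with ΔIEC replicate 1 far above every flox library (log2 difference 4.07, SE 0.74, limma adjusted p = 0.931). In tumours it was at 8.74, 18.3 and 1.16 and 55.8, 51.1 and 88.1 FPKM. Summed over the 165 segments, ΔIEC replicate 1 was at 2056 FPKM, below the flox libraries at 3331, 2332 and 2798, and the other ΔIEC libraries were at 15742 and 10291. The segments are similar in sequence, and how shared reads were split between them is not known.

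Macrophage genes were higher in 16 of 16 (median 0.61, 0.28 without ΔIEC replicate 3, 0.36 without ΔIEC replicate 2 and 1.05 without ΔIEC replicate 1), class II antigen presentation genes in 10 of 10 (0.93, 0.30 without ΔIEC replicate 3 and 1.73 without ΔIEC replicate 1) and fibroblast genes in 15 of 15 (0.46, 0.18 without flox replicate 2, 0.26 without ΔIEC replicate 2 or 3, 0.75 without flox replicate 1 and 1.07 without ΔIEC replicate 1). None of these genes parted the groups, where 2.56% of all tested genes parted upward and 43.5% were higher. The complement gene C1qb, a macrophage marker, was at 20.6, 12.3 and 9.62 FPKM in flox and 7.14, 45.8 and 46.0 in ΔIEC libraries. The matrix gene Dcn, a fibroblast marker, was at 59.0, 9.51 and 12.8 and 9.90, 71.7 and 79.3 FPKM, with flox replicate 1 near the 2 high ΔIEC libraries. Summed fibroblast levels were 343, 118 and 153 FPKM in flox and 97.5, 450.3 and 392 in ΔIEC libraries, and macrophage levels 217, 154 and 115 and 86.9, 455 and 495. Endothelial genes were higher in 14 of 15 (median 0.44, 0.12 without ΔIEC replicate 2 and 0.83 without ΔIEC replicate 1). T cell genes were higher in 14 of 17 (0.35, 0.08 without ΔIEC replicate 3 and 0.57 without ΔIEC replicate 1). For smooth muscle genes it was 8 of 13 (0.19, -0.69 without flox replicate 2 and 0.57 without ΔIEC replicate 1). Mast cell genes went the other way, with 1 higher and 9 lower (-0.20), while enteric neuron and glia genes, 1 higher and 6 lower, had a median of -0.05, and adipocyte and mesothelial genes, 1 higher and 2 lower, one of -0.16. The part of other cell types in the lower epithelial values was not tested. With the mean of the fibroblast, endothelial and smooth muscle lists as a covariate in the 6 libraries, limma called 0 genes. Without a covariate, the fit of these 6 libraries also called 0.

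Several lists split the 6 libraries alike, in an order that crossed the genotypes. The detoxification list was at 5.03, 6.44 and 6.55 in the flox libraries and 6.19, 5.12 and 4.93 in the ΔIEC libraries, as mean log2(FPKM + 1) of 25 genes, so flox replicate 1 stood with ΔIEC replicates 2 and 3. Fatty acid oxidation parted in the same way, at 5.16, 5.96 and 5.98 and 5.76, 5.08 and 5.05. In the ΔIEC mean, 23 of 25 detoxification genes and 23 of 26 fatty acid oxidation genes were lower, beside 56.5% of all tested genes. In each list 0 genes parted the genotypes, where 5.14% of all tested genes parted downward. The median log2 differences of these lists, -0.53 and -0.39, went to -0.26 and -0.29 without flox replicate 3. They were -0.98 and -0.61 without flox replicate 1. The UDP-glucuronosyltransferase Ugt1a1, chosen after its values were seen, was at 8.17, 82.8 and 102 FPKM in flox and 69.6, 17.6 and 10.9 in ΔIEC libraries.

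Homeobox genes, whose expression is graded along the gut, varied with these lists. Hoxb6, a central gene of its cluster, was at 0.321, 21.9 and 43.9 FPKM in the flox libraries and 23.96, 6.24 and 0.0801 in the ΔIEC libraries. Hoxb13, the most posterior gene of the same cluster and a marker of the distal colon, ran the other way, at 120.5, 10.2 and 1.56 and 30.1, 39.5 and 103 FPKM. Flox replicate 3 was highest for Hoxb6 and lowest for Hoxb13, while flox replicate 1 and ΔIEC replicate 3 were the highest for Hoxb13 and close to 0 for Hoxb6. Car1, a carbonic anhydrase gene of the proximal colon, was at 565, 3869.5 and 7269.9 and 3498, 832 and 202 FPKM, in nearly the order of Hoxb6. These 3 genes were chosen after their values were seen. The labels give no position along the colon, and its part in the genotype differences was not tested. With the mean of the posterior Hox list as a covariate in the 6 libraries, limma called 0 genes and 633 had an unadjusted p below 0.05. The limma fit of the same 6 libraries without a covariate also called 0 genes, and 417 had an unadjusted p below 0.05.

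Interferon response genes split the libraries in another way. The list mean was 3.15, 4.88 and 4.04 in flox and 5.15, 2.90 and 4.30 in ΔIEC libraries. Isg15, a ubiquitin-like protein induced by interferon, was at 7.86, 85.2 and 32.2 FPKM and 99.4, 6.05 and 27.9 FPKM. ΔIEC replicate 1 and flox replicate 2 were the highest, and the median log2 difference of 0.12 went from -0.36 without ΔIEC replicate 1 to 0.72 without ΔIEC replicate 2.

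**Figure D4:**
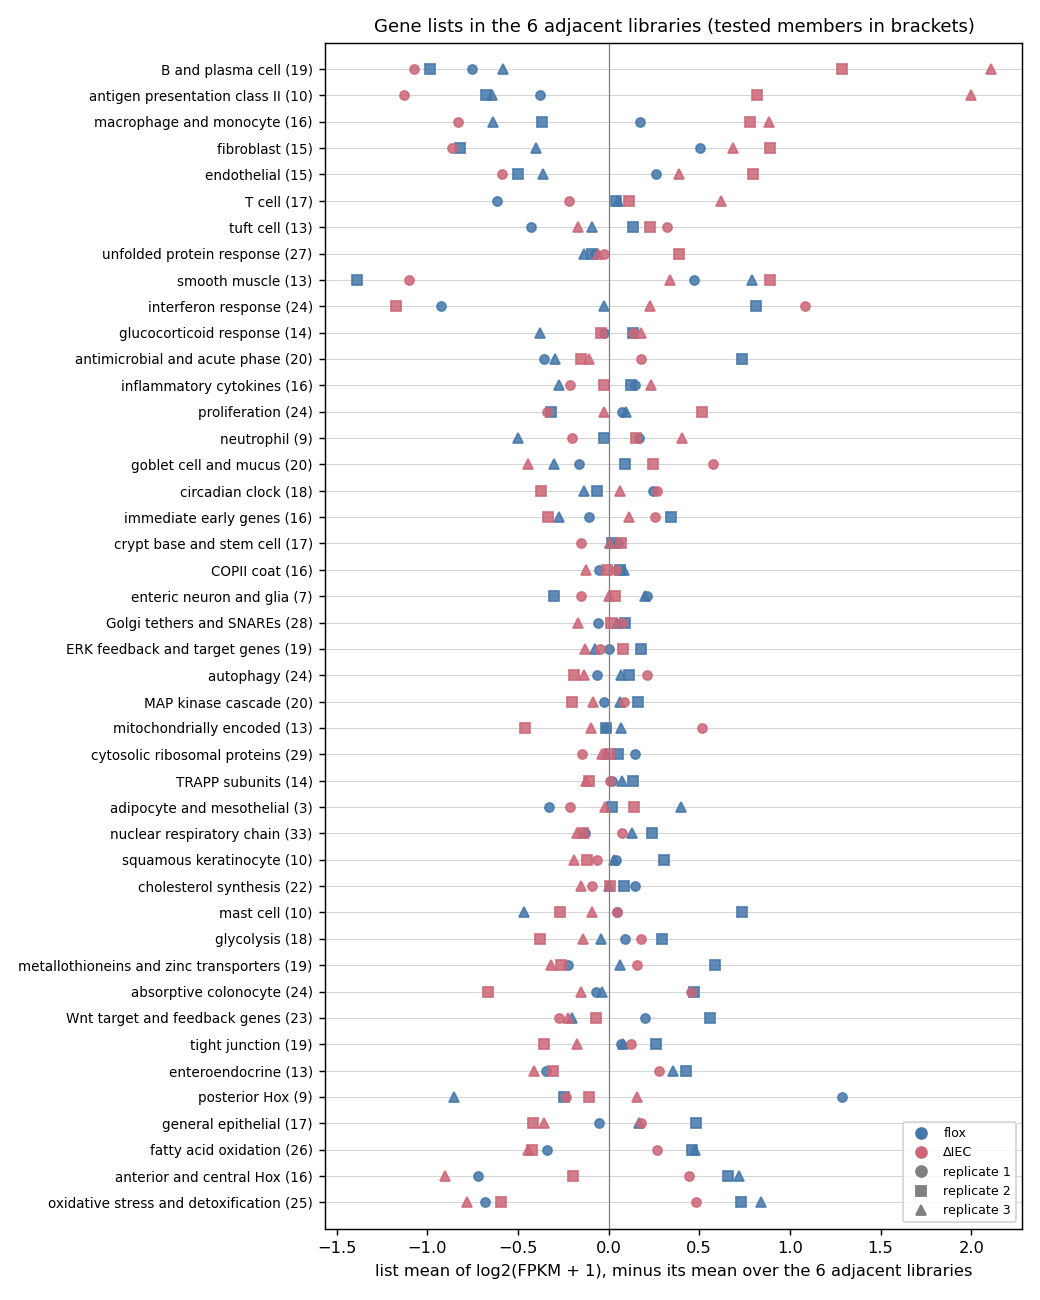
Mean log2(FPKM + 1) of 44 gene lists in each adjacent library minus the list's mean over the 6 libraries (horizontal; blue is flox, red is ΔIEC; circle, square and triangle are replicates 1, 2 and 3), ordered by the median log2 difference, with the number of tested members in brackets. In the detoxification list the flox circle lies with the red square and triangle, and in the B and plasma cell list the red circle lies with the flox points.

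The median SD of log2(FPKM + 1) over the tested genes was 0.19 in flox and 0.24 in ΔIEC libraries, and the flox SD was the larger in 39.5% of genes. An SD above 1 occurred in 618 genes in flox and 849 in ΔIEC libraries. Correlations between libraries were 0.928 to 0.962 within flox and 0.912 to 0.946 within ΔIEC tissue. The highest of all was 0.968, between ΔIEC replicate 1 and flox replicate 2. ΔIEC replicate 1 stood nearer to each flox library (0.937, 0.968 and 0.958) than to ΔIEC replicates 2 and 3 (0.912 and 0.921). Flox replicate 1 also stood nearer to ΔIEC replicates 2 and 3 (0.942 and 0.944) than to flox replicates 2 and 3 (0.940 and 0.928).

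The genes with the widest spread among flox libraries were Muc3, the noncoding RNA genes AY036118 and Xist, and genes of defence and transport. Reg3b, an antimicrobial lectin that inflammation induces, was at 0.418, 165 and 859.8 FPKM in flox and 35.9, 28.9 and 6.50 in ΔIEC libraries, and its relative Reg3g at 0.372, 92.5 and 272 and 22.0, 20.8 and 11.3. Atp12a, the colonic proton pump, was at 331, 12.9 and 2.27 and 43.8, 44.5 and 282 FPKM. Muc3, a membrane mucin, was listed at 0 in flox replicate 1 and at 1344 and 1151 FPKM in the other flox libraries, beside 1829, 696 and 1642 in ΔIEC libraries.

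AY036118 was also the widest gene among ΔIEC libraries. It was at 998 and 1112 FPKM in flox replicates 1 and 2 and at 972 and 842 in ΔIEC replicates 1 and 2, and was listed close to 0 in replicate 3 of both groups.

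Other genes with a wide spread in ΔIEC tissue were the phospholipase gene Pla2g4c, at 0.771, 15.2 and 3.28 FPKM in flox and 181, 25.8 and 1.04 in ΔIEC libraries, Retnlb, an antiparasitic goblet cell peptide, at 72.0, 635 and 213 and 1769.8, 2436 and 40.7, and the lipase gene Pnliprp2, at 3.39, 12.4 and 1.72 and 73.7, 42.5 and 0.922. ΔIEC replicate 3 was the lowest of its group for all 3 of these genes. The remaining wide genes named for ΔIEC tissue were sex-linked. The Y-linked gene Eif2s3y was at 0, 0.0889 and 36.7 and 43.4, 0 and 38.5 FPKM, and Xist, transcribed from the inactive X chromosome, was high in the remaining libraries. So 1 of 3 flox and 2 of 3 ΔIEC libraries expressed Y-linked genes, and with sex as a covariate limma called 0 genes and 908 had an unadjusted p below 0.05.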

How the data were processed

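The authors deposited log2(FPKM + 1) per transcript for 12 strand-specific total RNA libraries. The labels name FastQC, STAR 2.5, Cuffnorm and GRCm38, per the submitters' processing notes, and the sources used here do not give their settings or the library normalization. Of 123062 transcripts, 118004 (95.9%) matched GENCODE M21. Each value was converted back to FPKM, then added up per gene. The unmatched held 4.36% to 6.70% of the FPKM of an adjacent library. Genes or transcripts that reached an FPKM of 1 in 3 or more of the 12 libraries were fitted with limma 3.58.1 (R 4.3.3) on log2(FPKM + 1), a pseudocount of 1, with 1 mean per group of 3, trend and robust, and 8 residual degrees of freedom. A call is an adjusted p below 0.05 over all tested. FPKM can depend on the composition of a library, so a large small RNA share may lower the other values. The procedure was tested on simulated data.

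The comparison, gene lists and rules were chosen with earlier results of these data known, and lists get counts and medians, not tests. Named are Trappc4; among genes whose groups do not overlap, with a mean of at least 5 FPKM and without Gm, Rik, antigen receptor and small RNA genes, the 10 smallest p and 5 largest differences per direction; up to 3 members per list; the 6 largest SDs per group; and the 5 transcripts with the smallest p per direction. Not all are described. List members given as examples and those marked so were chosen after their values were seen. Alternatives were another pseudocount, 2 filters, 3 scalings, other fits, covariates, blocks, and leaving out each library.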

Additional observations from a re-analysis of the deposited data

How the results depend on the processing

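Genes called stayed at 0 in all settings except with a library left out, where the count went from 0 to 299, and the count for the difference between tissues from 0 to 1. Transcripts called went from 2 to 1 with the 6 adjacent libraries only, and from 1 to 39 with a library left out. With a replicate block by title number, limma called 0 genes and 1 transcript, Mt1-202 (Rbm47-206 was at an adjusted p of 0.0986), and with a block by description code 0 genes and 2 transcripts. Same-numbered flox and ΔIEC libraries correlated at -0.40, -0.24 and -0.19 in their deviations from the group means, so the title numbers do not pair them. Array weights gave 0 called genes but 4050 at an unadjusted p below 0.05, beside 702.

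Of 85 named genes, 81 kept their direction in each setting run. Many were named because their groups do not overlap, and leaving out a library cannot reverse such a gene. The count is therefore not independent evidence of a stable direction. Fabp4 (log2 difference 0.31) was at -0.15 with the stromal covariate and from -0.27 to 0.95 with a library left out, Mx1 (0.71) at -0.16 with array weights and from -0.11 to 1.23 with a library left out, and Krt15 (-0.23) and Krt4 (-0.16) at 0.13 and 0.17 with sex as a covariate. List medians moved by more than 1 SD of the list's mean within a group for TRAPP subunits, COPII, ribosomal protein and cholesterol synthesis genes with protein-coding genes rescaled (-0.04, 0.04, -0.03 and -0.11), for cholesterol synthesis with quantile normalization (-0.10), for tuft cell genes with array weights (-0.14) and for squamous keratinocyte genes with a pseudocount of 0.1 (-0.91) or sex as a covariate (0.09). The cause was not tested. The filter at an FPKM of 5 leaves no enteric neuron and glia gene, and gives no median for that list. Small differences of low genes, and any below the median half-interval of 0.43, are beyond 3 libraries a group.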
